A study of Caenorhabditis elegans with 9 samples.

Results

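The cytochrome P450 genes of Caenorhabditis elegans were followed across 4 strains that lack a gene of base excision repair, a gene of nucleotide excision repair, both, or neither. They were taken as every probe set with 1 gene symbol that begins with cyp- and a number, or that is daf-9 or emb-8. This gave 80 probe sets for 75 genes, of the 17118 genes measured by a probe set of their own, in 25 cyp subfamilies besides daf-9 and emb-8. emb-8 encodes the reductase that serves P450 enzymes and not a P450 itself. The reference strain was Bristol N2. The 3 mutants were nth-1(ok724), which lacks a DNA glycosylase that starts base excision repair, xpa-1(ok698), which lacks a damage-binding protein of nucleotide excision repair, and nth-1(ok724);xpa-1(ok698), the double mutant. Each mutant rests on 1 deletion allele per gene, which all cells of the animal carry. Total RNA of whole animals came from populations of all stages, kept at the same temperature on bacteria until the food was gone, and was hybridized to Affymetrix arrays. There were 2 arrays for N2, 3 for nth-1, 2 for xpa-1 and 2 for the double mutant. The study asked how the transcriptome of animals without added stress differs when such repair genes are lost.

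P450 enzymes are heme monooxygenases that insert oxygen into steroids, fatty acids and foreign compounds, and they draw the electrons for this from NADPH through the reductase EMB-8. Many nematode cyp genes, among them members of the cyp-13A, cyp-14A, cyp-33, cyp-34A and cyp-35 subfamilies, are known for induction by foreign compounds, often in the intestine. A few have set tasks in development: DAF-9 makes dafachronic acids, the steroid ligands of the nuclear receptor DAF-12, and CYP-31A2 and CYP-31A3 act with EMB-8 in the formation of the eggshell.

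All values are expression levels on the log2 scale, as normalized and deposited by the authors, and a difference of 1 is a 2-fold change. Differences were tested with limma in 1 fit of the 9 arrays, and a gene passed at an adjusted p under 0.05, with the adjustment over all 22548 probe sets that are not controls. The xpa-1 transcript was at 10.57 and 10.58 in N2 and at 5.66 to 6.59 in the 4 arrays of both strains labelled xpa-1. The nth-1 transcript was at 9.37 to 9.63 in the nth-1 arrays and at 9.32 and 9.63 in N2, and as the position of its probes against the deletion is not known, it checks nothing. The hybridization control BioC was at 9.54 to 9.99 on 5 arrays, namely those of N2 and the double mutant with xpa-1 replicate 1, and at 8.04 to 8.28 on the other 4, the 3 nth-1 arrays with xpa-1 replicate 2. The nth-1 arrays therefore cannot be told apart from the arrays with lower BioC signal, except through xpa-1, whereas the double mutant and N2 lie on the same side. Within nth-1, replicate 3 had correlations of 0.950 and 0.952 with its sister arrays across probe sets, where the N2 arrays had 0.994. Every comparison with N2 rests on its 2 arrays. The methods describe a set of plates for each replicate.

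Single P450 genes differed from N2 by -2.34 to 2.26 log2 units among those that passed. In nth-1, 6 P450 genes rose (8% against 2.80% of all genes) and 5 fell (6.67% against 7.62%), together 14.7% against 10.4%. In xpa-1, 5 rose (6.67% against 3.36%) and 6 fell (8% against 7.52%), together 14.7% against 10.9%. In the double mutant, 1 rose (1.33% against 4.50%) and 6 fell (8% against 4.59%), together 9.33% against 9.10%. The median difference over the 75 genes was -0.02, 0.03 and -0.03 in these strains, and over all genes it was -0.07, -0.07 and 0.05. In the double mutant the median over the P450 genes was -0.11 with quantile normalization and -0.21 over the 47 genes above the 40th percentile of level. By the methods' criterion of a ratio of means of at least 1.8, without a test, 21, 18 and 14 P450 genes differed from N2 in the nth-1, xpa-1 and double mutants, 28%, 24% and 18.7% against 8.94%, 12.2% and 12.1% of all genes. In nth-1 these were 15 higher (20% against 3.87%) and 6 lower (8% against 5.06%). Above the 40th percentile of level, 1 rose in nth-1 (2.13% of 47 against 3.15%) and 4 fell (8.51% against 5.90%), and cyp-13A1, cyp-13A6, cyp-14A3 and cyp-33C5 lie below that level. A test of any difference among the 4 strains was passed by 28 P450 genes, 37.3% against 34.2% of all genes.

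**Figure D1:**
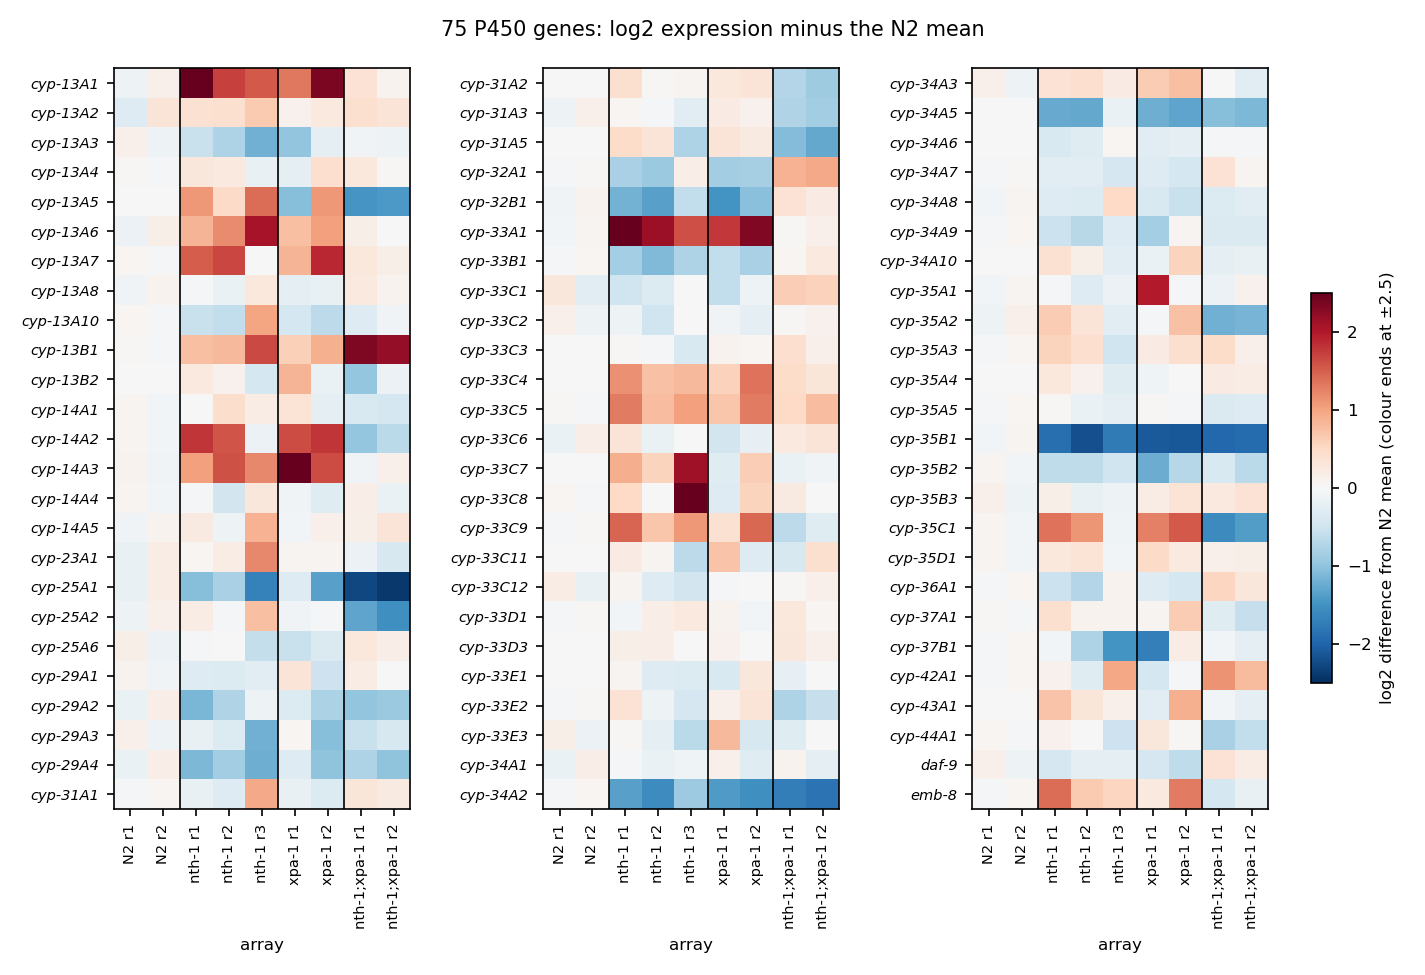
Expression of the 75 P450 genes (rows, in order of name) in the 9 arrays (columns, r is the replicate number), as the log2 difference from the mean of the 2 N2 arrays, with the colour scale ending at 2.5 in either direction. cyp-35B1 and cyp-34A2 are lower in all 7 mutant arrays, and cyp-33A1, cyp-13A1 and cyp-14A3 are higher in the 5 single mutant arrays and close to N2 in the double mutant.

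A first group of genes was higher in both single mutants and lay at the level of N2 in the double mutant. The clearest was cyp-33A1, a member of a family known for induction by foreign compounds. It was at 8.90 and 9.02 in N2, at 11.55, 11.09 and 10.57 in nth-1, at 10.73 and 11.28 in xpa-1, and at 8.99 and 9.09 in nth-1;xpa-1. All 5 single mutant arrays lay above all 4 of the others, and the double mutant overlapped N2. In nth-1 the rise was 2.11 with a standard error of 0.29 (adjusted p = 0.0042 from limma). In xpa-1 it was 2.05 with a standard error of 0.32 (adjusted p = 0.0072). In the double mutant the difference was 0.08 (adjusted p = 0.91). As ratios of linear means, cyp-33A1 was 4.48 and 4.20 times higher in the single mutants and 1.06 times higher in the double mutant.

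cyp-13A1 showed the same order of strains from a lower signal. It was at 4.38 and 4.65 in N2, at 7.01, 6.23 and 6.04 in nth-1, at 5.84 and 6.86 in xpa-1, and at 4.88 and 4.61 in nth-1;xpa-1. Again no single mutant array overlapped N2 or the double mutant. The rises were 1.91 in nth-1 and 1.83 in xpa-1, with standard errors of 0.35 and 0.38 (adjusted p = 0.012 and 0.021). In nth-1 cyp-13A6, which lies in the same run of genes, rose by 1.36 (limma, standard error 0.31, adjusted p = 0.03). It was at 5.60, 5.94 and 6.81 there against 4.60 and 4.91 in N2. In xpa-1 cyp-13A6 was at 5.51 and 5.78, which did not pass (0.89, adjusted p = 0.13), and the double mutant was at 4.91 and 4.74. A probe set shared by cyp-13A11 and cyp-13A12, which is counted for neither gene, differed from N2 by 1.48 in nth-1 (adjusted p = 0.003), by 1.24 in xpa-1 (adjusted p = 0.0091) and by -0.34 in the double mutant (adjusted p = 0.33).

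cyp-14A3, from another subfamily known to respond to foreign compounds, was at 6.07 and 5.89 in N2 and at 7.01, 7.58 and 7.18 in nth-1. In xpa-1 it was at 8.66 and 7.61, above every nth-1 array, and in nth-1;xpa-1 at 5.89 and 6.10, overlapping N2. The rises were 1.28 in nth-1 and 2.15 in xpa-1, with standard errors of 0.29 and 0.32 (adjusted p = 0.029 and 0.0062). The difference between xpa-1 and nth-1 of 0.88 did not pass (standard error 0.29, adjusted p = 0.49). cyp-33C5 was at 6.10 and 6.05 in N2, at 7.37, 6.85 and 7.11 in nth-1, at 6.76 and 7.37 in xpa-1, and at 6.58 and 6.84 in nth-1;xpa-1. It rose by 1.04 in nth-1 and by 0.99 in xpa-1, with standard errors of 0.22 and 0.24 (adjusted p = 0.021 and 0.034). The double mutant arrays of cyp-33C5 lay above N2 too, but the difference of 0.64 did not pass (adjusted p = 0.13). Its probe set is one that the array maker marks as able to bind other transcripts, so its signal may include other cyp-33C genes. The fifth rise in xpa-1 was that of cyp-34A3 (0.69, standard error 0.18, adjusted p = 0.04), at 7.88 and 8.01 against 7.38 and 7.12 in N2, with 7.62, 7.67 and 7.46 in nth-1 and 7.25 and 6.97 in the double mutant.

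cyp-14A2 and cyp-35C1 had the same shape in part of the arrays. cyp-14A2 was at 6.39 and 6.25 in N2, at 8.11, 7.89 and 6.18 in nth-1, at 7.96 and 8.10 in xpa-1, and at 5.36 and 5.65 in nth-1;xpa-1. cyp-35C1 was at 9.43 and 9.30 in N2, at 10.72, 10.46 and 9.26 in nth-1, at 10.63 and 10.90 in xpa-1, and at 7.77 and 7.97 in nth-1;xpa-1. For both, nth-1 replicate 3 lay with N2 and below the other nth-1 arrays, and neither gene passed against N2 in any strain. The differences from N2 were 1.07, 1.71 and -0.82 for cyp-14A2 and 0.78, 1.40 and -1.50 for cyp-35C1 in the nth-1, xpa-1 and double mutants, with adjusted p from 0.062 to 0.38. The second probe set of cyp-35C1 gave 1.35, 1.81 and -0.92 (adjusted p = 0.14, 0.075 and 0.35).

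**Figure D2:**
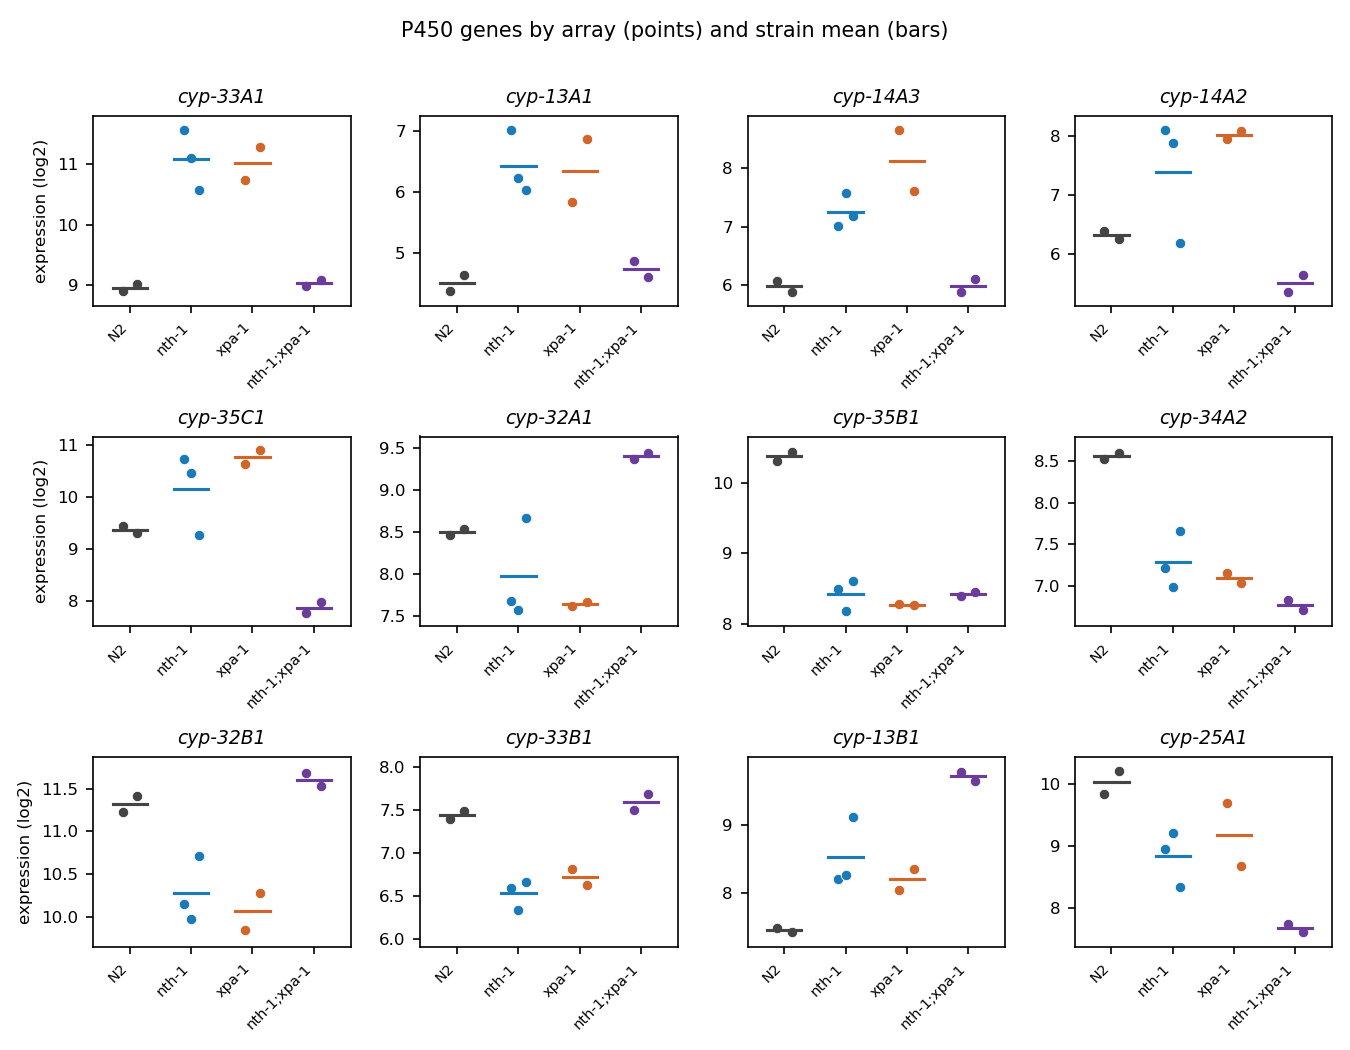
Log2 expression of 12 P450 genes in each array (points) with the mean of each strain (bars), on axes of their own range. cyp-33A1, cyp-13A1 and cyp-14A3 lie higher in both single mutants than in N2 and the double mutant, cyp-35B1 and cyp-34A2 lie lower in all 3 mutants, cyp-32B1 and cyp-33B1 lie lower in the single mutants, and cyp-13B1 (up) and cyp-25A1 (down) lie farthest from N2 in the double mutant.

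A second group was lower in the mutants. cyp-35B1, of a subfamily whose members respond to foreign compounds, was at 10.30 and 10.44 in N2, and at 8.49, 8.18 and 8.61 in nth-1, 8.28 and 8.26 in xpa-1, and 8.40 and 8.45 in nth-1;xpa-1. The 7 mutant arrays lay close together between 8.18 and 8.61, all below both N2 arrays. In nth-1 it fell by 1.94 with a standard error of 0.19 (adjusted p = 0.00083 from limma). In xpa-1 it fell by 2.10 and in the double mutant it fell by 1.95, each with a standard error of 0.21 (adjusted p = 0.0011 and 0.0021).

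cyp-34A2 fell in all 3 mutants as well. It was at 8.52 and 8.60 in N2, at 7.21, 6.99 and 7.66 in nth-1, at 7.15 and 7.03 in xpa-1, and at 6.83 and 6.71 in nth-1;xpa-1. The double mutant arrays were the lowest, below every single mutant array, although neither difference between the double and a single mutant passed (-0.52 against nth-1, adjusted p = 0.07, and -0.32 against xpa-1, adjusted p = 0.28). Against N2 the differences were -1.27, -1.47 and -1.79, with standard errors of 0.20, 0.22 and 0.22 (adjusted p = 0.0067, 0.0061 and 0.0035).

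Others were lower in the single mutants and back at N2 in the double mutant. cyp-32B1 was at 11.23 and 11.42 in N2, at 10.15, 9.97 and 10.71 in nth-1, at 9.84 and 10.28 in xpa-1, and at 11.68 and 11.53 in nth-1;xpa-1. It fell by 1.05 in nth-1 and by 1.26 in xpa-1, with standard errors of 0.24 and 0.27 (adjusted p = 0.03 and 0.022), and in the double mutant the difference was 0.28 (adjusted p = 0.56). cyp-33B1 was at 7.40 and 7.49 in N2, at 6.60, 6.34 and 6.67 in nth-1, at 6.82 and 6.63 in xpa-1, and at 7.50 and 7.69 in nth-1;xpa-1. It fell by 0.91 in nth-1 and fell by 0.72 in xpa-1, with standard errors of 0.15 and 0.17 (adjusted p = 0.0088 and 0.03). In both genes all single mutant arrays lay below all N2 and double mutant arrays.

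The remaining falls passed in 1 single mutant, and none of these genes differed between the single mutants beyond the threshold. In nth-1, cyp-29A4 fell by 1.06 (standard error 0.23, adjusted p = 0.024), from 8.25 and 8.58 in N2 to 7.30, 7.55 and 7.20, with 8.09 and 7.40 in xpa-1 and 7.65 and 7.41 in the double mutant. In xpa-1, cyp-34A5 fell by 1.27 (standard error 0.33, adjusted p = 0.044), from 7.68 and 7.67 to 6.46 and 6.35. It was also low in nth-1 replicates 1 and 2 (6.41 and 6.39) and in nth-1;xpa-1 (6.61 and 6.55), but at 7.50 in nth-1 replicate 3. Also in xpa-1, cyp-35B2, of the same run of genes as cyp-35B1, fell by 0.97 (standard error 0.20, adjusted p = 0.02), from 7.71 and 7.57 to 6.40 and 6.93. It was at most at 7.15 in nth-1 and at 7.25 and 6.96 in the double mutant, below both N2 arrays.

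The third group moved in the double mutant. cyp-13B1 was the P450 gene that rose there, at 9.78 and 9.65 in nth-1;xpa-1 against 7.48 and 7.43 in N2, with 8.21, 8.27 and 9.11 in nth-1 and 8.05 and 8.35 in xpa-1. Both double mutant arrays exceeded all others, and the single mutants lay between them and N2. The rise in the double mutant was 2.26 (standard error 0.30, adjusted p = 0.0054). In nth-1 it was 1.08 (standard error 0.28, adjusted p = 0.043), and xpa-1 differed by 0.75 (adjusted p = 0.15). A second probe set of cyp-13B1 gave 2.24 in the double mutant (adjusted p = 0.0056) and 0.95 in nth-1, which did not pass (adjusted p = 0.067). With the filter at the 40th percentile the rise of cyp-13B1 in nth-1 did not pass either. Its brighter probe set, like that of cyp-33C5, is marked as able to bind other transcripts. The second is marked as shared by several transcripts, which may come from the same gene or from others.

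cyp-25A1 and cyp-25A2, which are next to each other in the genome, fell in the double mutant. cyp-25A1 was at 9.84 and 10.20 in N2, at 8.95, 9.20 and 8.34 in nth-1, at 9.69 and 8.67 in xpa-1, and at 7.75 and 7.61 in nth-1;xpa-1. It fell by 2.34 in the double mutant (standard error 0.38, adjusted p = 0.011), the largest change among the P450 genes that passed against N2, and the single mutants differed by -1.19 (adjusted p = 0.064) and -0.84 (adjusted p = 0.18). cyp-25A2 was at 10.85 and 11.10 in N2, at 11.17, 10.95 and 11.72 in nth-1, at 10.88 and 10.92 in xpa-1, and at 9.65 and 9.45 in nth-1;xpa-1. It fell by 1.42 in the double mutant (standard error 0.25, adjusted p = 0.015), while both single mutants overlapped N2. The probe set shared by cyp-25A4 and cyp-25A5 differed by -0.01 there (adjusted p = 0.98).

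Which of these calls rest on single arrays was examined by leaving out each array in turn. Only cyp-35B1 passed in all 3 mutants whichever array was left out, with adjusted p of at most 0.023, 0.026 and 0.04. Every other call against N2 was lost without N2 replicate 2, and also without N2 replicate 1 except for cyp-34A2 in the double mutant. Of the 7 calls in the double mutant, cyp-35B1 and cyp-34A2 passed without its replicate 1, and cyp-35B1 alone without its replicate 2. In xpa-1, cyp-33A1, cyp-13A1 and cyp-33C5 did not pass without xpa-1 replicate 2, cyp-35B2 did not without replicate 1, and cyp-32B1, cyp-33B1 and cyp-34A5 did not without either. In nth-1, cyp-29A4 and cyp-33C5 did not pass without nth-1 replicate 1, cyp-13A6 and cyp-14A3 did not without replicate 2, and cyp-32B1 did not without either. Leaving out either double mutant array, which does not enter these differences themselves, ended the calls of cyp-13A6, cyp-14A3, cyp-29A4 and cyp-32B1 in nth-1 and of cyp-32B1, cyp-33B1, cyp-33C5 and cyp-34A5 in xpa-1. The rise of cyp-13B1 in nth-1 and that of cyp-34A3 in xpa-1 passed only with all arrays or without nth-1 replicate 3. The highest adjusted p without any 1 array was 0.062 and 0.08 for cyp-33A1 and 0.12 and 0.15 for cyp-13A1 in nth-1 and xpa-1, 0.066 for cyp-14A3 in xpa-1, 0.055 for cyp-34A2, 0.074 for cyp-13B1 and 0.12 for cyp-25A1 in the double mutant, and up to 0.25 for the rest. Every gene that passed kept its direction in all of these. With the BioC group as a block, none of the 11 genes passed in nth-1 and 4 of 11 did in xpa-1 (cyp-14A3, cyp-34A2, cyp-35B1 and cyp-35B2), with the same direction in all, and all 7 passed in nth-1;xpa-1. Only xpa-1, with 1 array on each side, informs this block.

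**Figure D3:**
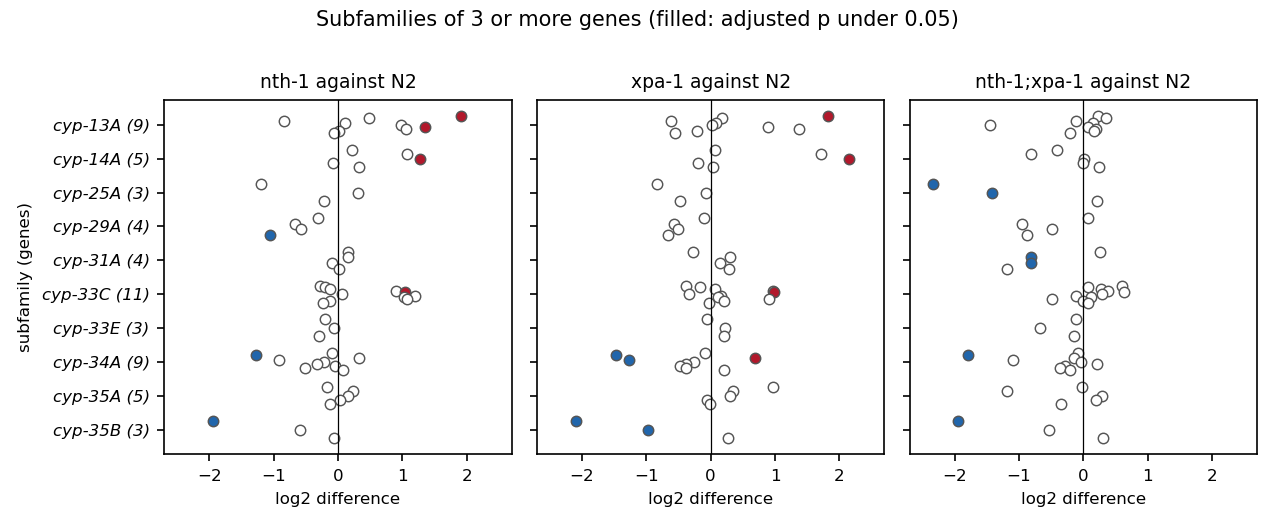
Log2 difference from N2 of each gene (points) in the 10 subfamilies with 3 or more genes, whose number of genes is in parentheses, in the nth-1, xpa-1 and double mutants. Filled points passed at an adjusted p under 0.05 (red above N2, blue below), and most points are open, with at most 3 genes of a subfamily filled in any panel.

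Few subfamilies moved as a whole, as the plot of genes by subfamily shows. Of the 9 cyp-13A genes, 2 rose in nth-1, 1 in xpa-1 and 0 in the double mutant, and the subfamily medians were 0.48, 0.09 and 0.15. Of the 11 cyp-33C genes, cyp-33C5 alone passed, in both single mutants, with medians of 0.06, 0.12 and 0.12. Of the 5 cyp-14A genes, cyp-14A3 alone passed. The 4 cyp-29A genes lay below N2 in both single mutants, with medians of -0.62 and -0.54, though 1 of them passed in nth-1 and 0 in xpa-1. In the double mutant 3 of the 4 lay below N2, with a median of -0.68, and 0 passed. The 9 cyp-34A genes had medians of -0.21, -0.38 and -0.21, with 1 fall in nth-1, 2 falls and 1 rise in xpa-1 and 1 fall in the double mutant. None of the 5 cyp-35A genes, which take part in fat storage and in the response to foreign compounds, passed against N2 with limma, and their medians were 0.03, 0.30 and -0.02. The 3 cyp-33E genes, of which cyp-33E2 is active in the pharynx, had medians of -0.20, 0.21 and -0.15 and did not pass either.

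Closely related P450 genes lie side by side in the genome. Gene order was that of the protein-coding genes of the RefSeq annotation, which leaves out P450 genes not listed there as protein-coding. Of the 72 genes in that order, 41 lay in 10 runs with at most 4 other genes between members. In the run cyp-13A1 to cyp-13A8 the difference between nth-1 and N2 ranged from -0.84 (cyp-13A3) to 1.91 (cyp-13A1). In the run cyp-14A1 to cyp-14A4 it ranged from -0.07 to 1.28. The longest run, of 10 genes, holds cyp-35A5, cyp-35B1 to cyp-35B3 and cyp-34A5 to cyp-34A10, and there the range was -1.94 (cyp-35B1) to 0.08. It was narrow in the pairs cyp-35A3 and cyp-35A4 (0.03 to 0.16) and cyp-33E2 and cyp-33E3 (-0.29 to -0.06). In the same run cyp-35B3 was at 5.64 and 5.38 in N2 and at 5.33 to 5.88 in the mutants.

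The effect of losing nth-1 was then compared between animals with and without xpa-1, by an interaction term equal to the change from xpa-1 to nth-1;xpa-1 minus the change from N2 to nth-1. The 2 changes share no array. Of the 75 genes, 31 passed, 41.3% against 40% of all genes. Below 0 there were 19, 25.3% against 15.2% of all genes, and above 0 there were 12, 16% against 24.8%. The median was -0.05 for the P450 genes and 0.22 for all genes. With quantile normalization, under which the median over all probe sets moved from 0.17 to 0, the split was 20 below and 6 above 0. The shares of all genes below and above 0 were not taken in that setting, so this split has nothing to be set against.

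**Figure D4:**
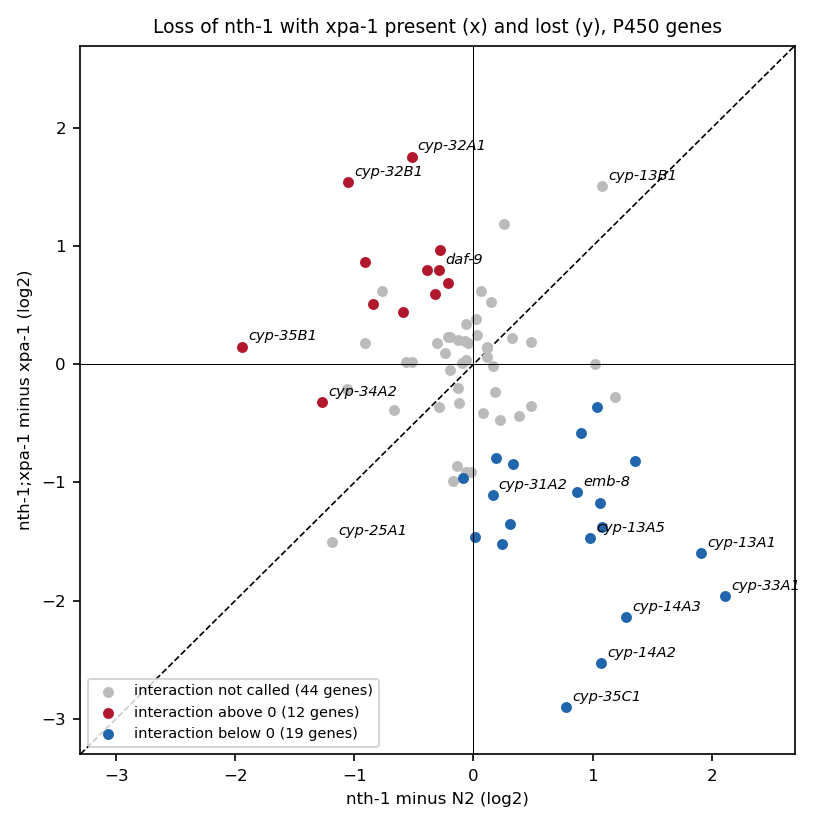
Log2 change on loss of nth-1 with xpa-1 present (horizontal axis, nth-1 minus N2) and with xpa-1 lost (vertical axis, nth-1;xpa-1 minus xpa-1) for the 75 P450 genes. The dashed line marks equal changes; the 19 genes with an interaction below 0 lie under it, with cyp-33A1, cyp-13A1, cyp-14A3, cyp-14A2 and cyp-35C1 farthest, and the 12 above 0 lie over it.

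Loss of nth-1 raised cyp-33A1 by 2.11 where xpa-1 was present and lowered it by 1.96 where xpa-1 was lost (adjusted p = 0.0025), an interaction of -4.08 (limma, standard error 0.43, adjusted p = 0.00033). The interaction was -3.68 for cyp-35C1 (standard error 0.57, adjusted p = 0.0016), which fell by 2.90 from xpa-1 to the double mutant (adjusted p = 0.0016). It was -3.60 for cyp-14A2 (standard error 0.71, adjusted p = 0.0048) and -3.42 for cyp-14A3 (standard error 0.43, adjusted p = 7e-04). For cyp-13A1 it was -3.52 (standard error 0.52, adjusted p = 0.0012). These 5 genes passed whichever array was left out.

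On the other side stood genes that were low in the single mutants. The interaction was 2.59 for cyp-32B1 (standard error 0.36, adjusted p = 0.00098), whose level rose by 1.54 from xpa-1 to the double mutant (adjusted p = 0.0031). It was 1.78 for cyp-33B1 (standard error 0.23, adjusted p = 0.00069). cyp-32A1 was at 8.46 and 8.53 in N2, at 7.68, 7.57 and 8.66 in nth-1, at 7.62 and 7.66 in xpa-1, and at 9.37 and 9.44 in nth-1;xpa-1, so that the double mutant exceeded every other array. Its interaction was 2.29 (limma, standard error 0.45, adjusted p = 0.0044) with the brighter probe set and 0.72 (adjusted p = 0.025) with the dimmer one, and no difference of cyp-32A1 from N2 passed. The brighter probe set is marked as shared by several transcripts, like the second of cyp-13B1, and the dimmer one is not. The probe sets of cyp-32B1, emb-8 and cyp-31A1 and the brighter one of cyp-35C1 are also marked as shared. For cyp-35B1 the interaction was 2.10 (standard error 0.28, adjusted p = 0.00081). Here it came with 1 level shared by all mutants: cyp-35B1 differed between nth-1;xpa-1 and xpa-1 by 0.15 (adjusted p = 0.59) and between nth-1;xpa-1 and nth-1 by 0.00 (adjusted p = 1). The fifth largest value above 0 among the genes that passed, of cyp-13A3, was 1.35 (standard error 0.37, adjusted p = 0.019), with 6.48 and 6.23 in N2, 5.79, 5.58 and 5.16 in nth-1, 5.37 and 6.11 in xpa-1, and 6.26 and 6.23 in nth-1;xpa-1.

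Of the 31 genes, 16 passed whichever array was left out. cyp-13A3 was not among them: without N2 replicate 1, xpa-1 replicate 1 or either double mutant array its adjusted p reached 0.074. With quantile normalization the interaction of cyp-13A3 did not pass either (limma, adjusted p = 0.061). With the BioC group as a block 4 of the 31 passed (cyp-13A3, cyp-14A3, cyp-32B1 and cyp-35B2) and 30 kept their direction. The exception was cyp-13A5, at -2.45 without the block and 0.78 with it (adjusted p = 0.55), whose xpa-1 arrays were at 9.20 and 11.35.

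The double mutant differed from either single mutant in a share of P450 genes near that of all genes, with more of them lower than higher. Against xpa-1, 10 were higher (13.3% against 20.8% of all genes) and 16 lower (21.3% against 14.5%), together 34.7% against 35.3%. Against nth-1, 9 were higher (12% against 22.9%) and 18 lower (24% against 14.6%), together 36% against 37.5%. By a ratio of means of at least 1.8, 25 and 22 differed, 33.3% and 29.3% against 26.3% and 23.0%. The median differences were -0.01 and -0.04, and over all genes they were 0.14 and 0.15. Some of them had not passed against N2. cyp-36A1, known from the response to low oxygen, was higher in the double mutant by 0.80 against either (adjusted p = 0.04 against xpa-1 and 0.027 against nth-1), and cyp-44A1, of the mitochondrial kind, differed from xpa-1 by -0.86 (adjusted p = 0.024). The call of cyp-36A1 against xpa-1 passed without nth-1 replicate 2 or 3 only (adjusted p up to 0.20), and against nth-1 it was lost without nth-1 replicate 1 or 2 or either double mutant array (up to 0.18). That of cyp-44A1 was lost without xpa-1 replicate 1 or either double mutant array (up to 0.14). Whichever array was left out, 10 of the 26 and 6 of the 27 passed. With the BioC group as a block, 15 of the 26 against xpa-1 passed, but of the 27 against nth-1, whose arrays all lie on the lower side, 1 did (cyp-14A3), and all kept their direction.

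Between the single mutants 0 P450 genes passed with limma, against 0.0175% of all genes (0.00584% higher, 0.0117% lower). At an unadjusted p under 0.05, 2 were higher and 1 lower in xpa-1. By a ratio of means of at least 1.8, 4 genes differed, 5.33% against 3.20% of all genes. These were cyp-14A3 (1.93 times higher in xpa-1), cyp-35A1 (2.76 times higher), cyp-33C7 and cyp-33C8 (lower in xpa-1, with signed ratios of -2.17 and -2.45). The most extreme values came from 1 array each. cyp-35A1 was at 6.75 in xpa-1 replicate 1 and at 4.44 to 4.86 in all other arrays, while cyp-33C7 and cyp-33C8 were at 8.47 and 10.59 in nth-1 replicate 3 and at most at 7.26 and 8.58 in the other arrays.

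Such gaps between arrays of 1 strain were frequent among the P450 genes. The 2 xpa-1 arrays differed by more than 1 log2 unit in 14 of the 75 genes, 18.7% against 3.40% of all genes. They were higher in xpa-1 replicate 2 in 7, with the largest gaps for cyp-13A5 (2.15) and cyp-37B1 (1.90), and higher in replicate 1 in 7, with the largest for cyp-35A1. nth-1 replicate 3 was more than 1 unit from the mean of replicates 1 and 2 in 14 genes too, 18.7% against 11.5% of all genes, from cyp-33C8 (2.33 higher) to cyp-14A2 (1.82 lower). Between the N2 arrays, between the double mutant arrays and between nth-1 replicates 1 and 2, no P450 gene had such a gap, against 0.275%, 0.304% and 0.368% of all genes. Without nth-1 replicate 3, 25, 22 and 18 P450 genes passed against N2 in the nth-1, xpa-1 and double mutants, in place of 11, 11 and 7. These were 33.3%, 29.3% and 24% of the P450 genes, against 28%, 29.0% and 27.1% of all genes under the same omission.

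The reductase emb-8 supplies electrons to the P450 enzymes. It was at 8.53 and 8.62 in N2, at 9.97, 9.23 and 9.12 in nth-1, at 8.81 and 9.87 in xpa-1, and at 8.14 and 8.38 in nth-1;xpa-1. All single mutant arrays lay above N2 and both double mutant arrays below it, but no difference from N2 passed (0.87, adjusted p = 0.15, 0.77, adjusted p = 0.23, and -0.31, adjusted p = 0.66). The double mutant was lower than nth-1, with a difference of -1.18 (standard error 0.35, adjusted p = 0.029), which did not pass without nth-1 replicate 1 or any array of N2 or the double mutant (up to 0.17). The interaction was -1.95 (standard error 0.52, adjusted p = 0.018), and it did not pass without either N2 array, xpa-1 replicate 2 or nth-1;xpa-1 replicate 1 (adjusted p up to 0.069). Under the BioC block the interaction of emb-8 was -0.36 (adjusted p = 0.81), its difference between the double mutant and nth-1 was -0.12 (adjusted p = 0.91), and that between nth-1 and N2 was -0.19 (adjusted p = 0.94).

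The P450 genes that act with emb-8 in the eggshell fell in the double mutant. cyp-31A2 was at 11.32 and 11.30 in N2, at 11.71, 11.33 and 11.37 in nth-1, at 11.58 and 11.64 in xpa-1, and at 10.58 and 10.42 in nth-1;xpa-1. cyp-31A3 was at 10.81 and 11.05 in N2, at 10.97, 10.90 and 10.66 in nth-1, at 11.13 and 11.03 in xpa-1, and at 10.18 and 10.06 in nth-1;xpa-1. For both genes the double mutant arrays lay below all 7 others. Each fell by 0.81 against N2 (adjusted p = 0.026 for cyp-31A2 with a standard error of 0.17, and 0.031 for cyp-31A3 with 0.18), and their interactions were -1.27 and -0.87, with standard errors of 0.23 and 0.24 (adjusted p = 0.0032 and 0.021). That of cyp-31A3 did not pass without N2 replicate 1, xpa-1 replicate 1 or either double mutant array (adjusted p up to 0.10), and with the BioC block neither interaction passed (-1.18 and -1.02, adjusted p = 0.14 and 0.20). Without either N2 array or either double mutant array the falls did not pass (adjusted p up to 0.20 and 0.25). With quantile normalization neither the fall nor the interaction of cyp-31A3 passed (limma, adjusted p = 0.063 and 0.12). The probe set of cyp-31A2 can bind related transcripts, so the values of these near-identical genes may overlap. cyp-31A5 was at 9.27 and 9.08 in the double mutant against 10.37 and 10.34 in N2, which did not pass (-1.18, adjusted p = 0.083). cyp-31A1, a pseudogene in RefSeq, was at 10.35 and 10.27, above both N2 arrays, and did not pass either (0.26, adjusted p = 0.71).

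**Figure D5:**
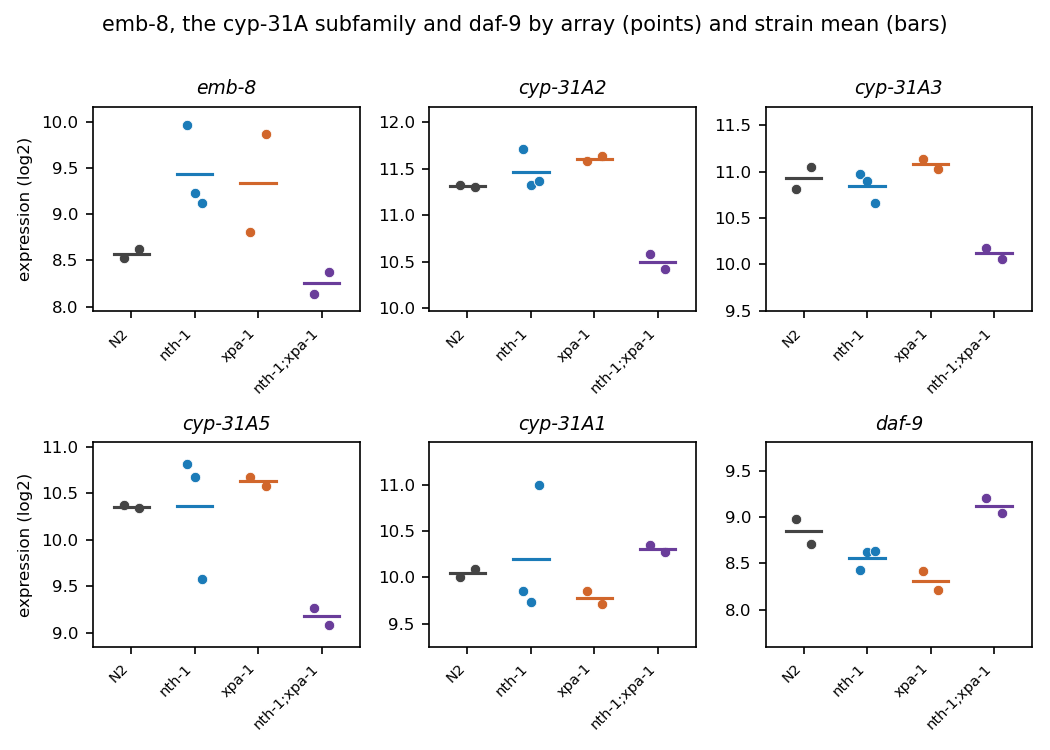
Log2 expression of emb-8, 4 cyp-31A genes and daf-9 in each array (points) with the mean of each strain (bars). In nth-1;xpa-1, cyp-31A2, cyp-31A3 and cyp-31A5 lie below every other array, cyp-31A1 and daf-9 lie above both N2 arrays, and emb-8 lies below both.

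Transcripts of oocytes and embryos fell beside them. Of 16 such markers, 10 fell in nth-1;xpa-1 and 0 rose, where 4.59% of all genes fell and 4.50% rose. The median of the 16 was -0.70, against 0.05 over all genes. The summed level of the 16 was 57480 to 61560 on the linear scale against 93850 to 94540 in N2, 76490 to 101400 in nth-1 and 114700 to 120200 in xpa-1. Among the falls were those of oma-1, a regulator of oocyte maturation (-1.14, adjusted p = 0.031), and egg-1, a receptor on the egg surface (-1.05, adjusted p = 0.046). Both were lost without either array of N2 or of the double mutant (adjusted p up to 0.22 and 0.27), and egg-1 also without nth-1 replicate 2 or either xpa-1 array. Leaving out 1 array gave 0 to 16 markers that passed, and with the BioC block 9 passed, egg-1 not among them (adjusted p = 0.051). In xpa-1, 2 of the 16 rose, against 3.36% of all genes. Of 5 yolk protein genes 2 fell in the double mutant (median -1.11), among them vit-6 by 1.54 (limma, adjusted p = 0.00017, passing whichever array was left out). The yolk genes summed to 32330 to 34390 there, 68180 to 71050 in N2, 40830 to 86970 in nth-1 and 88280 to 92880 in xpa-1. Of 10 sperm markers 1 rose in the double mutant, spe-11 (adjusted p = 0.03, and up to 0.19 without either array of N2 or of the double mutant). The sperm markers summed to 5871 to 5913 there, 3031 to 3254 in N2, 2034 to 4533 in nth-1 and 2165 to 4090 in xpa-1. Of 4 adult and 6 larval cuticle genes none passed against N2. In the double mutant 3 of the larval genes were lower than in nth-1 and 1 was lower than in xpa-1, against 14.6% and 14.5% of all genes. The adult genes summed to 6983 to 7098 in N2 and 6543 to 7054 in nth-1;xpa-1, but to 1613 to 7141 in nth-1 and 2466 to 5803 in xpa-1. The brightest, col-19, was at 12.56 and 12.57 in N2, at 12.49, 12.29 and 9.86 in nth-1, and at 10.64 and 12.18 in xpa-1. Its part in the gaps of P450 genes between arrays of 1 strain was not tested. The part of these markers in the fall of cyp-31A2 and cyp-31A3 was not tested, and in whole animals fewer cells of a type and less RNA per cell cannot be told apart.

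Markers of the intestine, where many P450 genes are expressed, moved in part. Of 9, pept-1, the intestinal peptide transporter, rose by 1.85 in nth-1 (adjusted p = 0.0098) and by 1.66 in xpa-1 (adjusted p = 0.021). The protease gene asp-1 fell by 0.83 in nth-1 (adjusted p = 0.017). In the double mutant the esterase gene ges-1 and the protease gene cpr-1 changed by -1.38 and -1.59 (limma, adjusted p = 0.04 and 0.0059). The other 7 did not pass there. Of these, elt-2, ifb-2, pept-1 and mtl-2 differed from N2 by 0.42, 1.23, 0.35 and 0.19. The rest, act-5, vha-6 and asp-1, differed by -0.17, -0.21 and -0.24. Each of the calls against N2 was lost without either N2 array (adjusted p up to 0.24). That of pept-1 in xpa-1 was also lost without xpa-1 replicate 2 or either double mutant array, that of ges-1 without nth-1 replicate 1 or 2 or either double mutant array, and that of cpr-1 without nth-1;xpa-1 replicate 2. Under the BioC block pept-1 differed by 0.73 and 1.10 in the single mutants (adjusted p = 0.57 and 0.08) and asp-1 by -1.33 in nth-1 (adjusted p = 0.097), none of which passed. With this block 3 of the 9 markers passed in the double mutant. The medians of the 9 were -0.07, -0.07 and -0.17, against -0.07, -0.07 and 0.05 over all genes. Of all genes, 2.80% rose in nth-1 and 3.36% in xpa-1, while 7.62% fell in nth-1 and 4.59% in the double mutant. The summed level of the 9 was 40620 to 43680 in N2, 28980 to 37580 in nth-1, 32460 to 46920 in xpa-1 and 33490 to 35590 in nth-1;xpa-1, and its part in the P450 values was not tested.

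daf-9, whose product makes the ligands of DAF-12, was at 8.98 and 8.71 in N2, at 8.43, 8.62 and 8.63 in nth-1, at 8.42 and 8.21 in xpa-1, and at 9.20 and 9.04 in nth-1;xpa-1. The single mutant arrays lay below N2 and the double mutant arrays above it, with differences of -0.29, -0.53 and 0.27 that did not pass (adjusted p = 0.35, 0.12 and 0.43). Between mutants it was higher in nth-1;xpa-1 than in xpa-1 by 0.80 and than in nth-1 by 0.56, with standard errors of 0.20 and 0.18 (adjusted p = 0.014 and 0.041). The former was lost without xpa-1 replicate 2 or either double mutant array (up to 0.10), the latter without nth-1 replicate 1 or 2 or any array of N2 or the double mutant (up to 0.23). The interaction was 1.09 (standard error 0.27, adjusted p = 0.013), and it did not pass without N2 replicate 1 or nth-1;xpa-1 replicate 1 (adjusted p up to 0.069). With the BioC block none of these differences of daf-9 passed, and the interaction was 0.78 (adjusted p = 0.35).

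Of 8 other genes of dafachronic acid synthesis and response, none passed in either single mutant and 1 rose in the double mutant (4.50% of all genes rose there). This was ncr-2, which encodes a sterol transporter of the NPC1 kind. It was at 7.12 and 7.15 in N2 and at 8.96 and 8.82 in nth-1;xpa-1, with 7.14, 7.15 and 7.52 in nth-1 and 6.54 and 7.30 in xpa-1. The rise of 1.76 (standard error 0.25, adjusted p = 0.0073) did not pass without either N2 or either double mutant array (adjusted p up to 0.083), and the interaction of 1.83 (adjusted p = 0.0037) passed whichever array was left out. daf-36, whose oxygenase acts early in the same pathway, was at 7.95 and 8.05 in N2 and at 8.02 to 8.40 in the mutants and did not pass. daf-12 was at 10.02 and 10.11 in N2, at 8.99, 8.93 and 11.42 in nth-1, at 10.05 and 9.81 in xpa-1, and at 10.71 and 10.54 in nth-1;xpa-1, so that the nth-1 arrays lay on both sides of N2. strm-1, a sterol methyltransferase gene, had an interaction of 0.80 (adjusted p = 0.019), which did not pass without N2 replicate 2, xpa-1 replicate 2 or either double mutant array (adjusted p up to 0.093), nor with the BioC block (0.62, adjusted p = 0.37).

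Among other partners of P450 enzymes the changes were few. Of 5 genes of electron transfer, none passed in nth-1 or the double mutant and 1 fell in xpa-1, where 7.52% of all genes fell. This was the cytochrome b5 gene cytb-5.2, which fell by 0.94 (limma, standard error 0.19, adjusted p = 0.02), from 12.07 and 12.03 to 11.07 and 11.14. Without either array of N2 or of xpa-1 this fall did not pass (adjusted p up to 0.15), nor did it with the BioC block (-0.98, adjusted p = 0.082). In nth-1;xpa-1 cytb-5.2 was at 12.60 and 12.59, above N2, and its interaction was 2.10 (adjusted p = 0.00063), which passed whichever array was left out. Of 5 flavin-containing monooxygenase genes, another class of enzymes that oxidize foreign compounds, none passed against N2. fmo-2 was at 10.63 and 10.60 in N2, at 12.51, 12.19 and 10.68 in nth-1, at 12.07 and 12.60 in xpa-1, and at 10.13 and 10.11 in nth-1;xpa-1, with an interaction of -3.39 (standard error 0.68, adjusted p = 0.005). As in cyp-35C1 and cyp-14A2, nth-1 replicate 3 lay with N2 and below the other nth-1 arrays. In the interaction fmo-4 was above 0 (1.24, adjusted p = 0.011, and 0.06 without nth-1;xpa-1 replicate 1). With the BioC block neither passed (adjusted p = 0.26 for fmo-2 and 0.092 for fmo-4).

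Of 7 regulators of the response to foreign compounds, 1 passed against N2, with a rise in the double mutant, where 4.50% of all genes rose. The aryl hydrocarbon receptor gene ahr-1 rose in the double mutant by 0.67 (standard error 0.17, adjusted p = 0.048), from 7.92 and 8.08 to 8.66 and 8.68, and this call passed only with all arrays or without nth-1 replicate 3 (adjusted p up to 0.28). The nuclear receptor gene nhr-86 was at 9.53 and 9.26 in N2, at 10.12, 10.05 and 9.80 in nth-1, at 10.18 and 10.13 in xpa-1, and at 8.95 and 8.60 in nth-1;xpa-1. Its single mutant arrays lay above N2 and its double mutant arrays below, its interaction was -1.98 (standard error 0.30, adjusted p = 0.0014, and 0.071 with the BioC block), and no difference from N2 passed. The other 5 regulators passed neither against N2 nor in the interaction.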

How the data were processed

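One value table with 22625 probe sets for the 9 arrays was used. In dChip, the authors brought the arrays to a common scale with an invariant set and took expression from their model of the perfect-match probes, and the deposited values are log2 expression levels. The version of dChip was not given in the sources used here. The methods state 3 replicates per strain, and the 9 arrays of the table were used. The array number limits the precision.

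The 77 control probe sets were left out. Probe sets with several gene symbols (887) or none (895) were tested but not named. Where a gene had several probe sets, the one with the highest mean stood for it, and 2 probe sets shared by several P450 genes were left out of the counts. All 80 P450 probe sets were found under the same symbol by gene ID in the RefSeq table of WBcel235, which was used for names and gene order only. By mean level 47 of the 75 genes lay above the 40th percentile of all probe sets.

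All strains entered 1 limma model (version 3.58.1, R 4.3.3) with a coefficient per strain, 5 residual degrees of freedom and a trend of variance on level. The p-values of the 22548 probe sets were adjusted by the Benjamini-Hochberg method, with 0.05 as the threshold, and the procedure was tested on simulated data. A P450 gene may be named where it passed any test, and its arrays are given for up to 5 rises and 5 falls per comparison with N2 and for the interaction, for daf-9, emb-8, cyp-31A2 and cyp-31A3, with up to 2 passing genes per other list and daf-12 and daf-36. The markers of oocytes, yolk, sperm, intestine and cuticle are given by counts, with examples. Genes named beyond this rule, such as cyp-31A1, cyp-35B3 and those with gaps between arrays, were named after their values were seen. The members and lists were chosen with earlier results of these data known. Alternatives were quantile normalization, 32 added before the logarithm, a filter at the 40th percentile, no variance trend, the replicate number or the BioC group as a block, the mean of a gene's probe sets, the methods' ratio of means of at least 1.8, and leaving out each array. Figures were drawn with matplotlib.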

Additional observations from a re-analysis of the deposited data

Results flagged for a closer look

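The interaction term of the limma fit, which compares loss of nth-1 with and without xpa-1, passed in 31 P450 genes. Of these, 14 are listed here: those farthest from 0 on either side, with daf-9, emb-8, cyp-31A2 and cyp-31A3. Other genes given by array passed as well, such as cyp-13A6 (-2.18), cyp-25A2 (-1.66) and cyp-35B2 (1.03). The value is the change on loss of nth-1 with xpa-1 lost minus that with xpa-1 present, on the log2 scale. It was -4.08 for cyp-33A1, -3.68 for cyp-35C1, -3.60 for cyp-14A2, -3.52 for cyp-13A1 and -3.42 for cyp-14A3. For the reductase emb-8 it was -1.95, and for its eggshell partners cyp-31A2 and cyp-31A3 it was -1.27 and -0.87. Above 0 it was 2.59 for cyp-32B1, 2.29 for cyp-32A1, 2.10 for cyp-35B1, 1.78 for cyp-33B1, 1.35 for cyp-13A3 and 1.09 for daf-9. The interaction passed in 41.3% of the P450 genes and in 40% of all genes. With the BioC group as a block, cyp-14A3, cyp-32B1 and cyp-13A3 passed among the 14. Among the other genes of the 31, cyp-35B2 did (1.82, adjusted p = 0.044). With this block cyp-13A1 was at -1.99 (adjusted p = 0.17) and emb-8 at -0.36 (adjusted p = 0.81). The interactions of emb-8, cyp-31A3, daf-9 and cyp-13A3 also did not pass when certain single arrays were left out. Those of cyp-31A3 and cyp-13A3 were lost with quantile normalization too (limma, adjusted p = 0.12 and 0.061).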

How the results depend on the processing

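Of the values of the genes given by array, 653 kept their direction and side of the threshold, 143 no longer passed, 2 newly passed and 5 turned, none of which passed in either setting. These were cyp-31A3 in nth-1 (-0.09), at 0.00 with the replicate block or without nth-1 replicate 3, 0.01 with the BioC block and 0.03 without N2 replicate 2, and emb-8 in nth-1 (0.87), at -0.19 with the BioC block. Of the other genes named, the interaction of cyp-13A5 turned with the BioC block. With the BioC group as a block, 0 P450 genes passed in nth-1 (limma, 14 at an unadjusted p under 0.05), 5 in xpa-1, 2 in the double mutant against nth-1, 6 in the interaction and 13 among the 4 strains, and the xpa-1 median was -0.05. With the filter at the 40th percentile, which leaves 47 of the P450 genes, 5 passed in nth-1 and 7 in xpa-1, and the double mutant median was -0.21. For the BioC block, and for xpa-1 with this filter, no share of all genes was taken beside these counts. By a ratio of means of at least 1.8, with no test, 21, 18 and 14 differed from N2 in the nth-1, xpa-1 and double mutants, and 4 between the single mutants. Quantile normalization gave medians of 0.05, 0.09 and -0.11 against N2 and -0.25 for the interaction.

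Same-numbered arrays of different strains did not deviate together (r from -0.26 to 0.10 in 12 pairs, and -0.12 to 0.26 in 18 pairs with different numbers), so the numbers pair nothing. With the replicate block, which also takes up nth-1 replicate 3, the only array of its number, 20, 19 and 18 genes passed against N2 in the nth-1, xpa-1 and double mutants, 31 and 32 in the double mutant against xpa-1 and nth-1, 0 between the single mutants, 40 in the interaction and 38 among the 4 strains, and the nth-1 median was 0.05. No share of all genes was taken with this block, so the counts cannot be read as particular to P450 genes.

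Leaving out 1 array gave 1 to 25 genes in nth-1, 1 to 22 in xpa-1 and 1 to 18 in the double mutant against N2, the lowest without an N2 array and the highest without nth-1 replicate 3. It gave 11 to 34 and 7 to 32 in the double mutant against xpa-1 and nth-1, 0 between the single mutants, 17 to 40 in the interaction and 9 to 40 among the 4 strains. Shares of all genes were taken only for the comparisons with N2 without nth-1 replicate 3. The medians ran from -0.09 to 0.05, -0.05 to 0.05 and -0.08 to -0.01 against N2 and from -0.04 to 0.11 in the interaction. The cause of these shifts was not tested.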
